A study of Mus musculus with 3 samples.

Results

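The members described here are 224 cell barcodes from mouse lung that matched a marker rule for interstitial macrophages, out of 6458 barcodes that passed the filters (3.47%). They came from 3 droplet libraries, 1 per group: 23 of 1728 barcodes in the control, 93 of 2434 after conventional irradiation (CONV) and 108 of 2296 after FLASH irradiation. A member had at least 8 unique molecular identifiers (UMIs, counts of single RNA molecules) of C1qa, C1qb and C1qc summed. It had at most 2 UMIs summed over Marco, Krt79, Plet1, Atp6v0d2, Fabp1 and Ear1, which mark alveolar macrophages, and none of Cd3e, Cd3d or Cd79a, which mark lymphocytes. Barcodes with fewer than 200 genes or more than 10% mitochondrial UMIs had been set aside.

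All mice were C57BL/6 females aged 10 to 12 weeks. The control group was not irradiated, and the CONV and FLASH groups received 17 Gy to the thorax under isoflurane, from an electron accelerator of 4.5 MeV. CONV delivers the dose at a conventional rate and FLASH at an ultra-high rate, and the labels compare both modes with the control. How many mice a library held and how long after irradiation they were sampled is not given in the sources used here, so each group is 1 sample (n = 1), with no replicate check and no test. Values in brackets are 95% intervals that cover counting error only, not differences between mice, dissociations or droplet runs.

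Interstitial macrophages live in the connective tissue of the lung, around vessels, airways and nerves, whereas alveolar macrophages live in the air spaces and clear surfactant. In mouse lung they are usually divided into cells rich in MHC class II, which displays peptides to helper T cells, and perivascular cells rich in the hyaluronan receptor Lyve1 and the folate receptor Folr2. The C1q genes encode the recognition subunits of the first complement component and set them apart from alveolar macrophages.

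The deposited totals were 7114360 UMIs in the control library, 7463259 in CONV and 5498902 in FLASH. The members held 106288, 260065 and 282230 of them, with a median member of 4465, 2401 and 2168 UMIs. The median number of genes in a member was 1553, 1060 and 989.5. The control members were thus fewer and deeper, and 1 UMI summed over them was worth 9.41 CPM (counts in 1000000 member UMIs), against 3.85 in CONV and 3.54 in FLASH. Mitochondrial shares were close, with medians of 2.61%, 2.53% and 2.59%. Libraries shared 7, 7 and 5 barcodes (control with CONV, control with FLASH, CONV with FLASH), and 1 shared barcode was a member. The control library stood apart in its lymphocytes: 685 of its barcodes were T cells by Cd3 genes, against 256 in CONV and 203 in FLASH.

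The members were chosen by these summed C1q, alveolar and lymphocyte UMIs, which are therefore given as a description. Summed C1q UMIs had medians of 83 per control, 49 per CONV and 43.5 per FLASH member, with lowest values of 36, 8 and 8. As a share of all UMIs in the cell the medians were 2.02%, 2.05% and 2.02%, so the C1q level per RNA was alike and the depth was not. Just inside the limit, with 8 to 11 C1q UMIs, lay 0, 2 and 4 members. Just outside it, with 5 to 7, lay 1, 4 and 2 barcodes. The limit on alveolar markers removed 2 CONV barcodes and none elsewhere. The limit on lymphocyte genes removed 8, 6 and 1 barcodes, so 8 of the 31 C1q-high control barcodes were left out, 7 of them for a single UMI.

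The label was checked against genes that the rule did not use. Ms4a7, a membrane protein of interstitial macrophages, stood at 470 CPM in control, 511 in CONV and 383 in FLASH members. Alveolar macrophages, gated by at least 6 UMIs of their markers, held 5.31, 10.2 and 6.21 CPM of it, and T cells held none. Apoe (apolipoprotein E) reached 23900, 14410 and 17060 CPM, Pf4 (the chemokine platelet factor 4) 3114, 3411 and 4011 CPM, and Csf1r (the receptor for the macrophage growth factor CSF1) 931, 681 and 620 CPM. Gated monocytes held 0, 3.83 and 0 CPM of Ms4a7, 2054, 2505 and 2859 CPM of Apoe and 10.5, 3.83 and 12.2 CPM of Pf4, all far below the members. Their Csf1r, at 643, 544 and 459 CPM, was close to that of the members and does not set the 2 classes apart. A group of members went against the label: 28 members (2 control, 9 CONV, 17 FLASH) had 5 or more UMIs of Fn1, which encodes fibronectin, and held 2 of the 291 Ms4a7 UMIs. They are described by their leading genes near the end, and several results that lean on them are given with and without them.

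Genes of other cell types were summed over the members as a background. The summed level of 14 alveolar macrophage markers was 715, 623 and 613 CPM in the members, where the rule capped 6 of them, and Siglecf, which it did not use, was at 0 in all 3 member groups. A count of 0 allows up to 3 UMIs, which are 28.2, 11.5 and 10.6 CPM in the members and 1.06, 4.92 and 8.35 CPM in T cells. Most of that sum in the members was the mannose receptor Mrc1 (546, 534 and 514 CPM), which interstitial macrophages also express. The 12 stromal markers summed to 386, 1503 and 2289 CPM in the members and to 572, 1951 and 1302 CPM in T cells, which should lack them. The 9 neutrophil markers summed to 273, 869 and 528 CPM in the members and 205, 561 and 696 CPM in T cells, with Cxcr2 and Ly6g at 0 in the members. Epithelial markers, led by the club cell protein Scgb1a1, summed to 6642, 11610 and 9882 CPM in the members and to 39070, 14410 and 33640 CPM in T cells. Markers of dendritic cells (11) summed to 687, 1146 and 893 CPM in the members and 273, 596 and 504 CPM in T cells. Gated dendritic cells held 4719, 4155 and 8667 CPM of them. Markers of classical monocytes (8) summed to 677, 958 and 935 CPM in the members and 677, 866 and 787 CPM in T cells. Non-classical monocyte markers (10) summed to 1505, 1357 and 1056 CPM in the members and 5109, 5129 and 5559 CPM in gated monocytes. Stromal, neutrophil, dendritic and classical monocyte sums were thus higher in both irradiated libraries in members and T cells. Their part in the results below was not tested.

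Members made up a larger share of the irradiated suspensions. They were 1.33% (0.846 to 1.99) of kept control, 3.82% (3.10 to 4.66) of kept CONV and 4.70% (3.87 to 5.65) of kept FLASH barcodes. CONV exceeded the control by 2.49 points (1.54 to 3.44) and FLASH by 3.37 points (2.34 to 4.42). The denominator holds the many control lymphocytes. Among barcodes with no Cd3e, Cd3d or Cd79a UMI the shares were 3.57%, 5.08% and 6.12%, a gap of 1.52 points (-0.440 to 3.13) for CONV and 2.56 points (0.547 to 4.25) for FLASH. Among 4 gated myeloid classes (interstitial and alveolar macrophages, monocytes, dendritic cells) they were 18.1%, 24.1% and 30.8%. There the gap to the control was 5.98 points (-2.61 to 13.3) for CONV and 12.7 points (3.78 to 20.3) for FLASH. The order of the 3 libraries was the same over all 3 denominators, and only the first put the CONV interval above 0. FLASH exceeded CONV by 0.883 points (-0.270 to 2.05) of kept barcodes and by 1.04 points (-0.467 to 2.56) of barcodes with no lymphocyte UMI. Of the 4 myeloid classes it exceeded CONV by 6.68 points (0.236 to 13.1), where alone the interval lay above 0, with a lower bound close to it. The monocyte gate in these classes carries an endothelial limit added after the data were seen. The shares without that limit are given at the end, and the gaps were not computed without it. All of these shares count the Fn1-rich members (2 control, 9 CONV, 17 FLASH), which went against the label, and the gaps were not computed without them. A share of a suspension depends on dissociation and loading, which cannot be told apart here from the number of cells in the tissue.

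**Figure D1:**
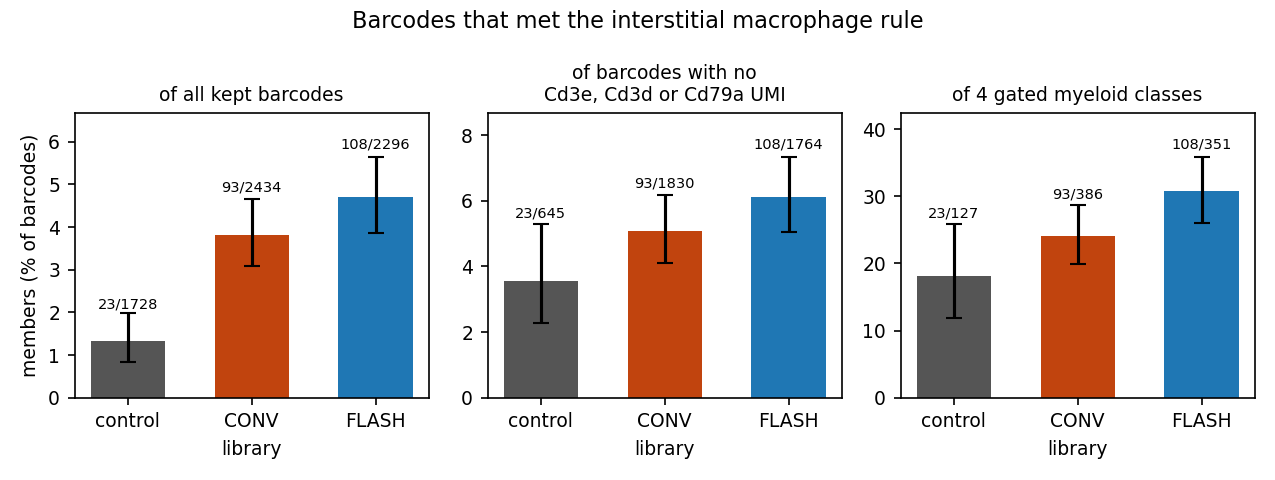
Members as a percentage of 3 denominators (y axis) in the control, CONV and FLASH libraries (x axis), 1 library per bar, with 95% Clopper-Pearson intervals and the counts above each bar. The share was lowest in the control and highest in FLASH over each denominator, and the intervals of control and CONV overlap in the middle and right panels.

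Gene levels were compared as UMIs summed over the members of a library, in CPM of all their UMIs. A ratio is of CPM, with a conditional binomial interval. A gene was counted as higher or lower when its log2 ratio, with 10 CPM added to both levels, was at least 2-fold. Of 2468 genes with a mean of at least 50 CPM that the rule did not use, 7.62% were at least 2-fold higher and 3.32% at least 2-fold lower in CONV than in control members. For FLASH against control the shares were 8.51% and 3.85%, and for FLASH against CONV 1.7% and 1.13%. In either direction they were 10.9%, 12.4% and 2.84%. Counts past 2-fold within a list below are descriptions to be read beside these shares. The median log2 ratio over all these genes was 0.10, 0.07 and -0.02. The mean was taken over the 3 libraries, so a gene low in the control could pass through the irradiated members. Both irradiated libraries are compared with the same 23 control members, so agreement between those comparisons is not independent.

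Genes activated by p53, the transcription factor stabilised by DNA damage, were higher in the irradiated members. Of 28 genes on the p53 list, 14 passed the level filter, and their median log2 ratio was 1.10 in CONV and 1.22 in FLASH. In CONV 7 of the 14 were at least 2-fold higher, in FLASH 10 of 14, and none was lower in either. Without the 28 Fn1-rich members the medians were 1.23 and 1.20, with 8 and 9 genes higher. The list spans arms of the response such as cell cycle arrest (Cdkn1a, Ccng1), death signalling (Bax, Phlda3) and feedback on p53 itself (Mdm2). Of these, Mdm2 was under 2-fold in CONV, and Btg2, Pmaip1 and Plk3 of the list were not higher, as given below.

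Cdkn1a encodes p21, the inhibitor of cyclin-dependent kinases that holds damaged cells out of division. Its level was 555 CPM (59 UMIs) in control, 2784 CPM (724 UMIs) in CONV and 1945 CPM (549 UMIs) in FLASH members. A UMI was seen in 8 of 23 control, 90 of 93 CONV and 101 of 108 FLASH members, and the UMIs per member ran from 0 over a median of 0 to 31 in the control, from 0 over 7 to 24 in CONV and from 0 over 4 to 22 in FLASH. The control was therefore low in most members and high in 1, which held 31 of its 59 UMIs. CONV was 5.01-fold (3.84 to 6.66) and FLASH 3.50-fold (2.68 to 4.67) above the control. FLASH stood at 0.699 times CONV (0.624 to 0.782). With the highest member of each library left out, the log2 ratios to the control rose from 2.31 to 3.22 in CONV and from 1.79 to 2.69 in FLASH. After thinning each member to 2000 UMIs, which leaves out 2, 19 and 47 shallower members, Cdkn1a was seen in 33.3%, 94.6% and 91.8% of members and in 7.29%, 11.6% and 12.5% of T cells thinned alike (535, 121 and 32 T cells; unthinned median depths 2965, 1932 and 1544 UMIs). Alveolar macrophages went from 367 CPM to 1160 CPM in CONV and 1111 CPM in FLASH, a ratio of 3.16 (2.45 to 4.14) and 3.03 (2.34 to 3.98). Gated monocytes stood at 358, 375 and 398 CPM, with intervals of both ratios spanning 1.

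Around the annotated starts of Cdkn1a the deposited expression can be set beside the DNA that p53 binds, the p53 pair of decamers. The window from 250 bases before to 50 after 1 of its 2 RefSeq starts in the table (GRCm38.p6, chr17:29090729-29091028, plus strand) holds such a pair, shown in capitals, beginning 51 bases before the start. The search took both strands and adjacent decamers, with at most 1 mismatch outside the fixed C and G of each.
Cdkn1a: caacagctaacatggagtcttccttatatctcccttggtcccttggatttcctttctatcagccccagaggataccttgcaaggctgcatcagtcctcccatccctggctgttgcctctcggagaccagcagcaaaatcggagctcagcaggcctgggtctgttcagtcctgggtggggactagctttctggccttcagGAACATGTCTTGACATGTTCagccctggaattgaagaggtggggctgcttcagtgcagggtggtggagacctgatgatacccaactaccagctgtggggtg
The same search matched 22 of 32851 promoter windows (0.067%). The window of the other Cdkn1a start (chr17:29093519-29093818) had no match. A match describes letters and not binding, and no value here tells the 2 starts apart.

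Phlda3, a p53 target that restrains AKT signalling, had 18.8 CPM in the control (2 UMIs), 135 in CONV (35 UMIs) and 152 in FLASH (43 UMIs), a ratio of 7.15 (1.84 to 61.4) and 8.10 (2.11 to 69.0). Ccng1 (cyclin G1) had 28.2, 177 and 163 CPM, with ratios of 6.27 (2.02 to 31.5) for CONV and 5.78 (1.86 to 29.0) for FLASH. The wide upper bounds come from 2 and 3 control UMIs. Bax, the pore-forming killer of the mitochondrial outer membrane, had more counts: 179 CPM (19 UMIs) in control, 650 (169) in CONV and 517 (146) in FLASH members. Its ratio was 3.63 (2.26 to 6.19) in CONV and 2.89 (1.79 to 4.95) in FLASH, while in alveolar macrophages Bax stood at 340, 343 and 360 CPM with ratios of 1.01 (0.745 to 1.38) and 1.06 (0.774 to 1.46).

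Dcxr, a carbonyl reductase, stood at 28.2, 165 and 131 CPM, and Rps27l, a ribosomal protein paralogue, at 423, 842 and 858 CPM. Because Rps27l is a near copy of Rps27, its value depends on how the authors' alignment divided their reads. Mdm2, the ligase that degrades p53, stood at 104, 188 and 259 CPM, with intervals of 0.934 to 3.88 (CONV) and 1.32 to 5.23 (FLASH). Other list genes did not share the pattern: Btg2 stood at 1609, 1515 and 1400 CPM, Pmaip1 (Noxa) at 104, 76.9 and 81.5 CPM and Plk3 at 104, 65.4 and 49.6 CPM. The remaining genes past the filter (Ei24, Ephx1, Plk2, Gdf15) were higher after irradiation in value, at 28.2 to 142 CPM over the 3 libraries, and the interval of Ephx1 alone excluded 1 in both comparisons.

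**Figure D2:**
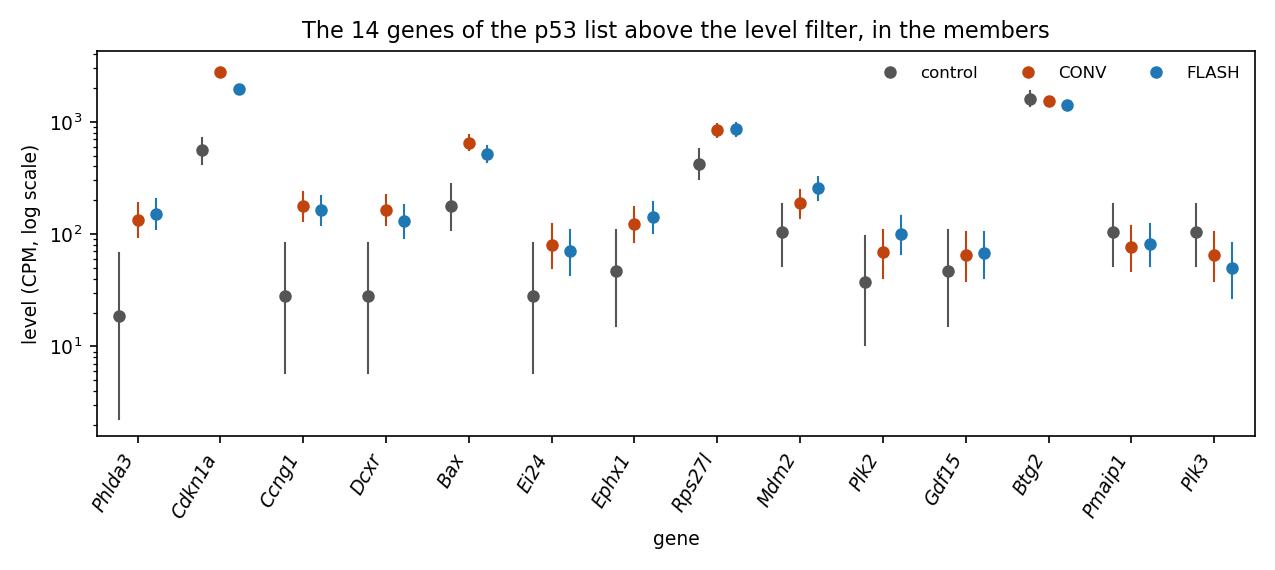
Level of 14 p53 list genes (x axis) in CPM on a log scale (y axis), summed over the members of each library, with 95% Poisson intervals. The control points of Cdkn1a, Bax and Ccng1 lie below both irradiated points, and those of Btg2, Pmaip1 and Plk3 lie above them.

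Cebpb ranked first of the higher genes in both comparisons with the control, by the lower bound of its ratio. It encodes C/EBP-beta, a bZIP factor of myeloid cells that drives inflammatory and monocyte-derived macrophage programs. It stood at 113 CPM (12 UMIs) in control, 2215 CPM (576 UMIs) in CONV and 1807 CPM (510 UMIs) in FLASH members. UMIs per member ran from 0 over a median of 0 to 2 in the control, from 0 over 4 to 43 in CONV and from 0 over 3 to 41 in FLASH, so the control members were low throughout. The ratio was 19.6 (11.1 to 38.2) in CONV and 16.01 (9.08 to 31.2) in FLASH, and FLASH was 0.816 times CONV (0.723 to 0.921). Thinned to 2000 UMIs, Cebpb was seen in 9.52% of control, 86.5% of CONV and 82.0% of FLASH members (unthinned 39.1%, 91.4% and 78.7%), and in 1.87%, 26.4% and 25% of T cells thinned alike. Without the Fn1-rich members the log2 ratios were 4.15 and 3.53, against 4.18 and 3.89 with them.

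Other classes moved the same way for Cebpb. Gated monocytes had 358, 5198 and 3894 CPM, with ratios of 14.5 (10.3 to 21.0) for CONV and 10.9 (7.70 to 15.8) for FLASH. Alveolar macrophages had 1036, 2030 and 2018 CPM, with ratios of 1.96 (1.67 to 2.30) for CONV and 1.95 (1.66 to 2.30) for FLASH. T cells had 7.80, 176 and 167 CPM, 22.5-fold (14.1 to 37.4) and 21.4-fold (12.9 to 36.7) above their control. The higher Cebpb was therefore present in T cells too, at a far lower level than in the members, and the part of RNA free in the droplets in it was not tested. The T cells also differed in kind between the control and the irradiated libraries, as given above, which cannot be told apart from irradiation here.

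Further genes named by the size of their ratio are given with their level in T cells. S100a6, a small calcium-binding protein, had 132, 804 and 950 CPM in the members, a ratio of 6.10 (3.56 to 11.3) and 7.21 (4.22 to 13.4), and T cells had 162, 881 and 665 CPM. S100a4 had 47.0, 342 and 436 CPM, and T cells had 43.2, 346 and 312 CPM. Fn1-rich members held 64.1% of the members' S100a4, and without them its log2 ratios were 2.55 and 1.83. For both genes the T cells carried about as much as the members. The control T cells were the ones rich in thymocyte markers, so T cell type and irradiation cannot be told apart in these T cell values. Hivep2, a zinc finger factor, had 9.41 CPM in the control (1 UMI), 181 in CONV and 174 in FLASH, and T cells had 14.5, 70.5 and 80.7 CPM. Basp1 had no UMI in control members, 33 in CONV and 18 in FLASH. With no control UMI its ratio has no upper bound, and the lower bound was 3.46 in CONV and 1.66 in FLASH.

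MHC class II genes were lower in the irradiated members. All 6 list genes that passed the filter were below the control in both comparisons, with a median log2 ratio of -0.95 in CONV and -0.93 in FLASH, and 2 of them (Cd74 and H2-Aa) were at least 2-fold lower in each. Without the Fn1-rich members the medians were -0.83 and -0.64, with 2 and 1 genes at least 2-fold lower. H2-Aa, H2-Ab1 and H2-Eb1 encode chains of the peptide-presenting molecules, Cd74 the invariant chain that guides them, and H2-DMa and H2-DMb1 the chaperone that loads the peptide.

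The promoters of 2 of these genes carry, shown in capitals, the Y box CTGATTGG, one of the elements through which MHC class II genes are transcribed together. The RefSeq windows (GRCm38.p6, 250 bases before to 50 after the start) are H2-Aa at chr17:34287774-34288073, minus strand, with the box beginning 51 bases before the start, and H2-Eb1 at chr17:34305617-34305916, plus strand, with the box 62 bases before it.
H2-Aa: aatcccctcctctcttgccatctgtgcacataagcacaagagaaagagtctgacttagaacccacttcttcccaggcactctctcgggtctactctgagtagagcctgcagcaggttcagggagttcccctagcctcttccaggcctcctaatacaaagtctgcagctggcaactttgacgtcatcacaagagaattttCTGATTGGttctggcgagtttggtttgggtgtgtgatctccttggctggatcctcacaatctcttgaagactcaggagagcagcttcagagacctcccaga
H2-Eb1: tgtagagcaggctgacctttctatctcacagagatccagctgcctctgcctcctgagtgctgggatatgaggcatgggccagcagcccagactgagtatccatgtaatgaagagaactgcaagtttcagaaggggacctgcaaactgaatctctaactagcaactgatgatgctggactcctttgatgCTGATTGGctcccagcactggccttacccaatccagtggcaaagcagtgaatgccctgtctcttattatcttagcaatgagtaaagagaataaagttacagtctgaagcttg
Searched on both strands, the exact 8 letters occurred in 1346 of 32851 windows (4.10%). The windows of H2-DMa, H2-DMb1 and H2-DMb2 did not hold these exact letters. No window of H2-Ab1 or Cd74 was at hand in this set, so whether they hold the box is not stated.

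Cd74 stood at 37550 CPM (3991 UMIs) in control, 15820 CPM (4115 UMIs) in CONV and 14700 CPM (4149 UMIs) in FLASH members. Its UMIs per member ran from 0 over a median of 124 to 513 in the control, from 0 over 15 to 174 in CONV and from 0 over 6 to 218 in FLASH. The ranges overlapped from 0 upward, and the control members were also the deeper ones, so the levels per RNA below carry the comparison. The ratio was 0.421 (0.403 to 0.440) in CONV and 0.392 (0.375 to 0.409) in FLASH. H2-Aa stood at 8740, 3488 and 4014 CPM, with ratios of 0.399 (0.364 to 0.438) for CONV and 0.459 (0.421 to 0.501) for FLASH. H2-Ab1 stood at 7997, 4168 and 4319 CPM and H2-Eb1 at 5711, 2945 and 3175 CPM, with ratios between 0.516 and 0.556. The peptide loader followed at a lower level, with H2-DMa at 677, 427 and 376 CPM and H2-DMb1 at 894, 523 and 450 CPM.

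The same genes were measured in the other antigen-presenting classes. Gated dendritic cells (18, 31 and 14 barcodes) held 37160, 31060 and 28830 CPM of Cd74, a ratio of 0.836 (0.798 to 0.876) and 0.776 (0.727 to 0.828). Their H2-Aa had ratios of 0.807 (0.739 to 0.880) and 0.786 (0.697 to 0.886), and their H2-Eb1 of 0.771 (0.692 to 0.860) and 0.801 (0.691 to 0.926). Gated monocytes held 5362, 8369 and 6294 CPM of Cd74, with ratios of 1.56 (1.42 to 1.72) for CONV and 1.17 (1.05 to 1.31) for FLASH. Alveolar macrophages, low in MHC class II, held 1339, 1549 and 962 CPM. Cd74 was thus below the control in dendritic cells as in the members, by less, and above it in the monocytes, and these differences between classes were not tested.

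Single members ran from almost none to much MHC class II RNA. The summed share of MHC class II genes in a member's UMIs ran from 0 over a median of 5.59% to 14.2% in the control, from 0 over 1.01% to 12.1% in CONV and from 0 over 0.405% to 15.6% in FLASH. The range was alike in the 3 libraries and the median was not. With a limit of 1%, chosen after the values were seen, 6 of 23 control members were low (26.1%, 10.2 to 48.4), 45 of 93 in CONV (48.4%, 37.9 to 59.0) and 61 of 108 in FLASH (56.5%, 46.6 to 66.0). In CONV the low share exceeded the control by 22.3 points (-0.355 to 39.1), and in FLASH by 30.4 points (7.94 to 46.6). Near the limit, between 0.5% and 2%, lay 3, 14 and 12 members. Without the Fn1-rich members the low share was 19.0%, 45.2% and 49.5%, above the control by 26.2 points (2.89 to 41.8) and 30.4 points (7.17 to 45.6). FLASH differed from CONV by 8.09 points (-5.65 to 21.4) with them and 4.21 points (-10.4 to 18.6) without. With barcodes of at most 1 lymphocyte UMI let in, 6 of 30 control members, 46 of 98 in CONV (46.9%) and 61 of 108 in FLASH were low.

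Within the MHC class II high members the difference was smaller. In 17 control, 46 CONV and 46 FLASH members of that kind (Fn1-rich members left out), Cd74 was 0.67 times the control in CONV and 0.77 times in FLASH. H2-Aa was 0.64 times (0.58 to 0.70) in CONV and 0.90 times (0.83 to 0.99) in FLASH. H2-Ab1 and H2-Eb1 were 0.84 and 0.83 times the control in CONV, and 1.05 and 1.08 times in FLASH. H2-DMa and H2-DMb1 stood at 0.82 to 1.07 times the control, with intervals that span 1. Since the limit itself is set on these genes, their levels on either side of it are a description.

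**Figure D3:**
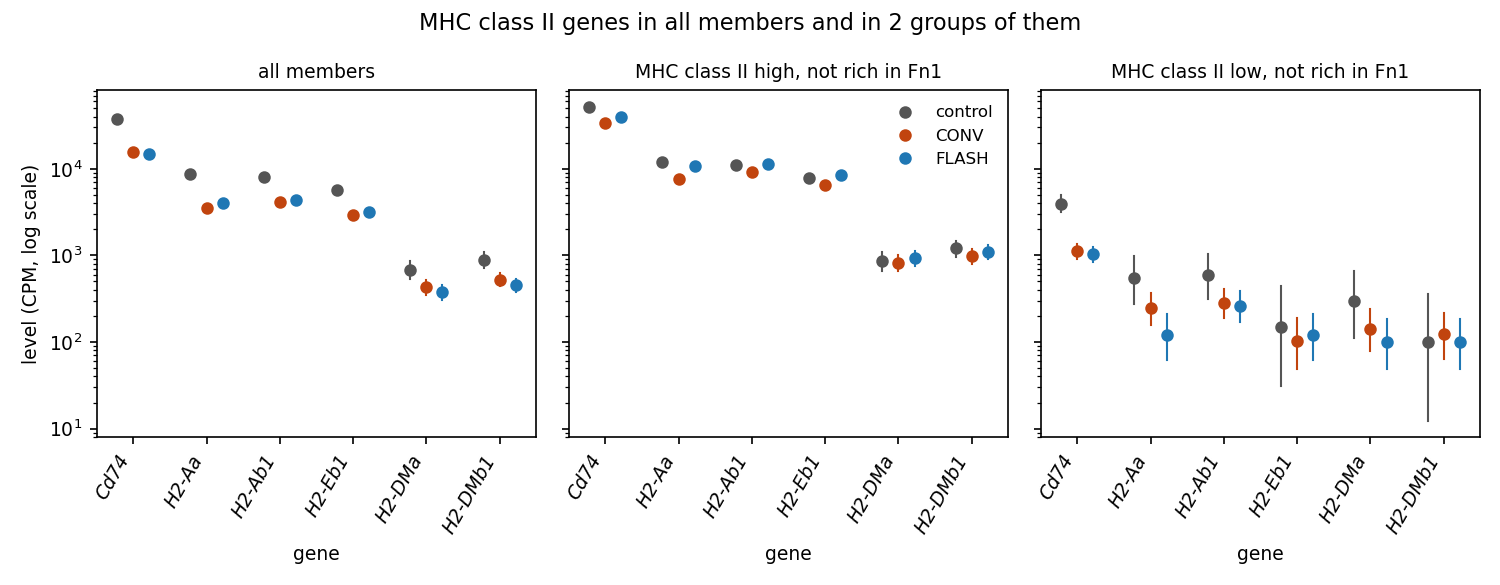
Level of 6 MHC class II genes (x axis) in CPM on a log scale (y axis) in all members, in MHC class II high and in MHC class II low members, with 95% Poisson intervals. The gap between the control and both irradiated libraries is wide for Cd74 in the left panel (37550 against 15820 and 14700 CPM) and narrower among the high members.

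In the irradiated libraries Cdkn1a, Bax and Cebpb were at similar levels on both sides of this limit. Cdkn1a in MHC class II low members was 0.97 times that in high members in CONV and 0.92 times in FLASH, Bax 1.25 and 0.76 times, and Cebpb 1.26 (1.04 to 1.54) and 1.15 times (0.896 to 1.48). In the control Cdkn1a was 4.75 times (2.71 to 8.39) and Bax 9.20 times (3.02 to 33.3) as high in the low members. All 31 low Cdkn1a UMIs were in 1 control member. Of the 12 low Bax UMIs, held by 4 control members, 8 were in 1. Among the high members alone, Cdkn1a was 10.0-fold (6.67 to 15.7) above the control in CONV and 7.12-fold (4.70 to 11.2) in FLASH. Bax was 9.45-fold (3.86 to 30.03) and 10.9-fold (4.47 to 34.7) higher in the high members, from 5 control UMIs, and Cebpb 19.4-fold (9.26 to 49.0) and 13.2-fold (6.22 to 33.6). Among the low members Cdkn1a was 2.03-fold (1.40 to 3.04) and 1.37-fold (0.938 to 2.07) above the control, and the Bax ratios of 1.29 (0.696 to 2.60) and 0.907 (0.479 to 1.86) had intervals that span 1. These low-member ratios lean on the few control members just named and were not computed without them. Over all members, without the highest member of each library for the gene, Cdkn1a stood at 283, 2713 and 1882 CPM. Bax then stood at 111, 631 and 498 CPM.

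The low members carried the perivascular genes. The summed level of the 15 genes on that list had a median of 1.53%, 1.46% and 1.54% of UMIs in low members and 0.405%, 0.220% and 0.254% in high members (control, CONV, FLASH), so the same opposition held in each library. Low over high, Lyve1 had a ratio of 3.64 in CONV and 6.01 in FLASH, Folr2 of 3.95 and 11.3, and F13a1 (coagulation factor XIII) of 3.84 and 5.06. Cd163, the haemoglobin scavenger receptor, had 8.65 and 2.23. The reverse was seen for Ccr2, the receptor that brings monocytes into tissue, at 0.28 and 0.072, and for Ccl17, a chemokine also made by dendritic cells, with 64 and 76 UMIs in high and none in low members. Those UMIs came from 4 CONV and 7 FLASH members. Across cells, the correlation of the MHC class II with the perivascular share was -0.71, -0.59 and -0.62 without the Fn1-rich members (21, 84 and 91 cells that share a library and a total), given as a description.

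**Figure D4:**
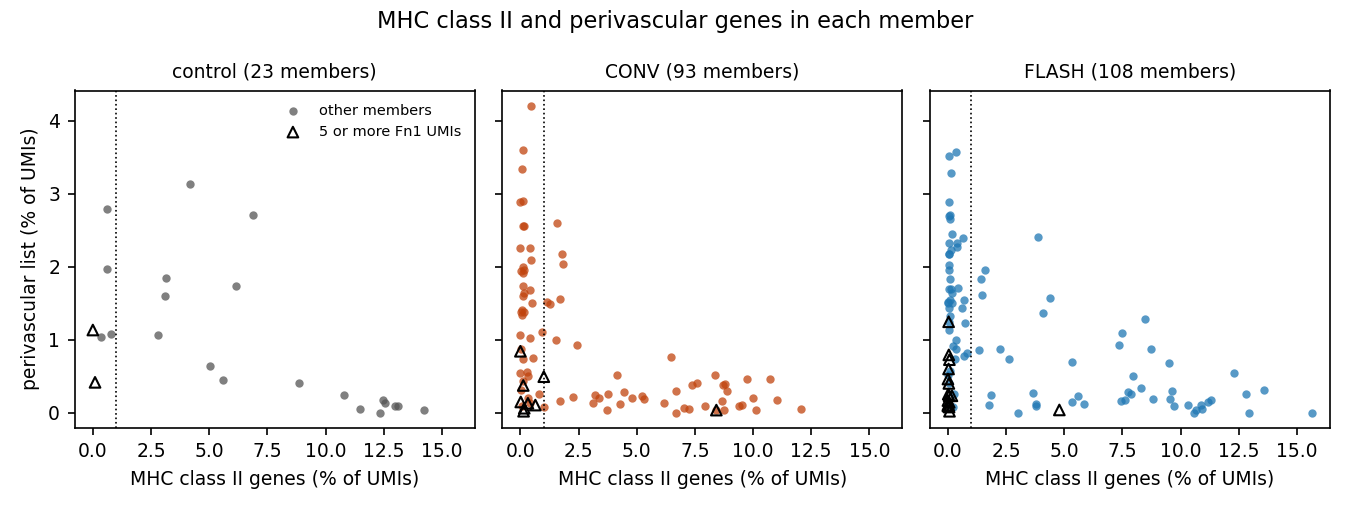
Each point is 1 member, with its summed MHC class II genes (x axis, % of UMIs) against its summed perivascular list (y axis, % of UMIs) in each library, and triangles are members with 5 or more Fn1 UMIs. Points lie along both axes in each library, the dotted line at 1% marks the limit between low and high members, and 25 of the 28 triangles lie left of it.

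Over all members the perivascular list was near the level of all genes, with a median log2 ratio of -0.03 in CONV and -0.09 in FLASH over 15 genes. None was at least 2-fold higher, and 2 and 3 were at least 2-fold lower. Without the Fn1-rich members the medians were 0.15 and 0.28. Lyve1 stood at 198, 262 and 230 CPM, Pf4 as given above, Cbr2 (a carbonyl reductase) at 367, 534 and 532 CPM and F13a1 at 405, 504 and 457 CPM. Folr2 stood at 649, 458 and 326 CPM, with ratios of 0.705 (0.520 to 0.963) for CONV and 0.502 (0.363 to 0.696) for FLASH. Thinned to 2000 UMIs, a Lyve1 or Folr2 UMI was seen in 38.1%, 43.2% and 39.3% of members and in 0.935%, 1.65% and 3.13% of T cells (unthinned members 52.2%, 41.9% and 39.8%).

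Timd4, a receptor for dying cells that marks long-lived resident macrophages, stood at 169 CPM (18 UMIs) in control, 19.2 CPM (5 UMIs) in CONV and 42.5 CPM (12 UMIs) in FLASH members, a ratio of 0.114 (0.0330 to 0.317) and 0.251 (0.110 to 0.551). In the Fn1-rich members were 6, 1 and 7 of these UMIs. Ccl8, a ligand of chemokine receptors on monocytes and T cells, stood at 1562, 746 and 726 CPM, with ratios of 0.478 (0.386 to 0.591) for CONV and 0.465 (0.377 to 0.574) for FLASH. It was uneven among cells: its UMIs per member ran from 0 over a median of 0 to 65, 37 and 34. The other 8 list genes had intervals that span 1 in CONV, and of these Cd209g was at least 2-fold lower in FLASH, at 207, 169 and 92.1 CPM. Of its 22 control UMIs, 13 were in 1 member. Without the highest member of each library, Cd209g in FLASH was 0.846 times the control (0.37 to 2.10). Ccl8 was then 0.617 times the control in CONV and 0.619 times in FLASH, within 2-fold. Timd4 stayed lower, at 0.131 and 0.246 times the control.

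The 24 genes of the identity list had a median log2 ratio of -0.39 in CONV and -0.28 in FLASH (-0.27 and -0.02 without the Fn1-rich members), and none passed 2-fold in either direction. Apoe was 0.603 times the control (0.573 to 0.634) in CONV and 0.714 times (0.680 to 0.750) in FLASH. Lyz2 (lysozyme) stood at 22920, 15630 and 21100 CPM, and the transcription factor Maf at 310, 392 and 379 CPM. Ms4a7 had ratios of 1.09 (0.780 to 1.54) and 0.814 (0.577 to 1.16). Thinned to 2000 UMIs, an Ms4a7 UMI was seen in 57.1%, 52.7% and 37.7% of members.

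Chemokine genes past 2-fold were few and lay in both directions. Of 15, CONV had 2 at least 2-fold higher and 1 lower than the control (median log2 ratio 0.07), and FLASH 3 higher and 3 lower (median 0.67). Over all genes 7.62% were higher and 3.32% lower in CONV, and 8.51% and 3.85% in FLASH. Without the Fn1-rich members CONV had 3 higher and none lower (median -0.07), and FLASH 1 higher and 2 lower (median 0.39). Cxcl2 and Ccl7, both abundant, stayed within 2-fold. Cxcl2, a neutrophil attractant, stood at 3895 CPM in control, 6621 in CONV and 6310 in FLASH members, a ratio of 1.70 (1.53 to 1.90) and 1.62 (1.46 to 1.81). In alveolar macrophages it went the other way, from 1286 CPM to 438 and 556 CPM, with ratios of 0.340 (0.278 to 0.415) for CONV and 0.432 (0.354 to 0.526) for FLASH. Ccl7, a monocyte attractant, stood at 2070, 4114 and 3444 CPM, with ratios of 1.99 (1.72 to 2.31) for CONV and 1.66 (1.44 to 1.94) for FLASH. Ccl2, the main ligand of Ccr2, was 1.37 times the control (1.18 to 1.59) in CONV and 1.05 times (0.903 to 1.23) in FLASH. Ccl6 stood at 1374, 2522 and 2360 CPM, but without the Fn1-rich members its log2 ratios were 0.29 and -0.08.

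Cxcl10, an interferon-induced attractant of T cells, had 18.8 CPM (2 UMIs), 142 CPM (37 UMIs) and 85.04 CPM (24 UMIs), a ratio of 7.56 (1.95 to 64.8) and 4.52 (1.12 to 39.5). With the lymphocyte limit dropped, it stood at 101 CPM (15 UMIs), 143 and 87.3 CPM. The CONV difference was then far smaller, and the log2 ratio in FLASH turned to -0.19. The other interferon-stimulated genes stayed within 2-fold: Ifitm3 at 809, 1019 and 1028 CPM and Ifi27l2a at 480, 765 and 680 CPM, with a list median log2 ratio of 0.27 and 0.41 over 6 genes. Cxcl13, a B cell attractant, was lower at 978, 219 and 273 CPM, with ratios of 0.224 (0.159 to 0.312) for CONV and 0.279 (0.205 to 0.378) for FLASH.

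Ccl3 and Ccl4, chemokines that attract leukocytes, were lower in FLASH. Ccl3 stood at 1242, 819 and 418 CPM and Ccl4 at 1948, 1496 and 439 CPM. In FLASH, Ccl3 was 0.337 times the control (0.260 to 0.435) and 0.510 times CONV (0.404 to 0.642). Ccl4 was 0.226 times the control (0.179 to 0.283) and 0.294 times CONV (0.238 to 0.360). For Ccl4, 130 of the 207 control UMIs came from 1 member. With the highest member of each library left out, Ccl4 was 0.488 times the control (0.360 to 0.665) and 0.297 times CONV (0.236 to 0.373) in FLASH, and 1.64 times the control in CONV, above it and no longer below.

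**Figure D5:**
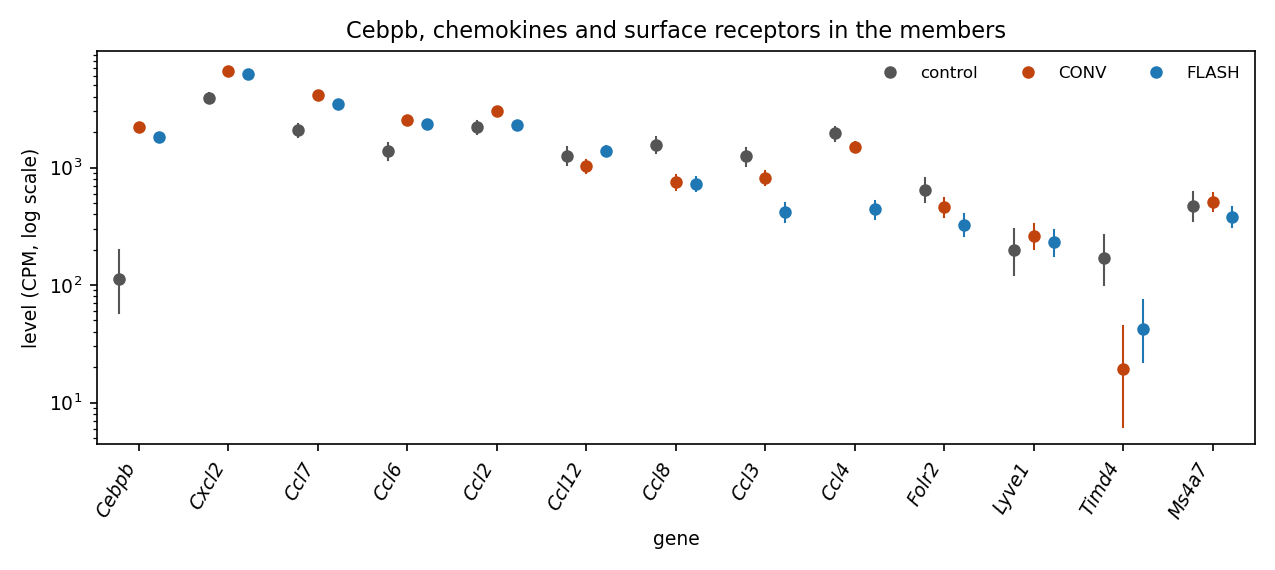
Level of Cebpb, 8 chemokines and 4 surface proteins (x axis) in CPM on a log scale (y axis) in the members of each library, with 95% Poisson intervals. Cebpb lies far below both irradiated points in the control (113 against 2215 and 1807 CPM), Ccl3 and Ccl4 are lowest in FLASH, and Lyve1 and Ms4a7 differ little.

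Of 16 cytokine and NF-kB genes, 2 were at least 2-fold higher and 1 lower in CONV, and 1 higher and 1 lower in FLASH. These are small counts beside the shares over all genes just given. Il1b (interleukin 1 beta) stood at 1637, 1880 and 1527 CPM and Nfkbia, the NF-kB inhibitor, at 1919, 1950 and 2129 CPM. Ptgs2 (cyclooxygenase 2) had 18.8, 127 and 166 CPM, from 2 control UMIs, a ratio of 6.74 (1.73 to 58.0) and 8.85 (2.32 to 75.2). Tgfb1, the fibrosis-linked growth factor, belongs to the growth factor and matrix list below and not to these 16 genes. It stood at 113 CPM (12 UMIs) in control, 304 (79) in CONV and 170 (48) in FLASH members. Its ratio was 2.69 (1.46 to 5.43) in CONV and 1.51 (0.788 to 3.12) in FLASH, and FLASH was 0.560 times CONV (0.383 to 0.811). Il6 stood at 358, 138 and 429 CPM, but 35 of its 38 control UMIs came from 1 member.

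Of 12 growth factor and matrix genes, CONV had 2 higher (Fn1 and Tgfb1) and 4 lower. FLASH had 2 higher (Fn1 and Thbs1) and 3 lower. Mmp12 (macrophage elastase) was lower at 358, 162 and 110 CPM, with ratios of 0.452 (0.284 to 0.720) for CONV and 0.307 (0.185 to 0.507) for FLASH. Mmp13 (a collagenase) was lower at 216, 19.2 and 31.9 CPM, with ratios of 0.0888 (0.0264 to 0.239) for CONV and 0.147 (0.0600 to 0.331) for FLASH. Retnla, a secreted product of alternatively activated macrophages, stood at 2982, 650 and 390 CPM, with 283 of its 317 control UMIs in 1 member. Without the highest member of each library its ratio to the control was 0.674 (0.432 to 1.06) in CONV and 0.363 (0.219 to 0.602) in FLASH. Apoc1 and Vsig4 rested on single control members in the same way (78 of 79 and 26 of 30 UMIs). Vcam1 (518, 185 and 230 CPM) turned from lower to a log2 ratio of 0.06 in CONV and 0.33 in FLASH without the highest member of each library.

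The 20 lysosomal genes had a median log2 ratio of -0.26 in CONV and -0.32 in FLASH, with none past 2-fold. Psap (prosaposin) stood at 2183, 1311 and 1120 CPM, Ctsb (cathepsin B) at 2211, 1600 and 1570 CPM and, in the opposite direction, Laptm5 at 772, 1265 and 1332 CPM. The 16 lipid and iron genes had medians of -0.30 and -0.38, with 1 higher and 3 lower in CONV, and 2 higher and 2 lower in FLASH. Trf (transferrin) stood at 2305, 1077 and 1028 CPM, with ratios of 0.467 (0.392 to 0.557) for CONV and 0.446 (0.375 to 0.531) for FLASH. Slc40a1 (ferroportin, the iron exporter) had 160 CPM (17 UMIs), 46.1 CPM (12 UMIs) and 17.7 CPM (5 UMIs), a ratio of 0.288 (0.126 to 0.641) and 0.111 (0.0319 to 0.313).

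Genes of complement and uptake were near the background, with median log2 ratios of 0.06 and 0.05 over 21 genes. Higher among them were Cd93, a membrane protein of phagocytes, at 28.2, 127 and 128 CPM, Lrp1, an uptake receptor for lipoproteins and dying cells, at 75.3, 185 and 223 CPM, and, in FLASH, the scavenger receptor Msr1 at 28.2, 61.5 and 159 CPM. Of 18 receptor genes, Tlr2, which senses bacterial lipopeptides, stood at 113, 365 and 198 CPM, with ratios of 3.24 (1.77 to 6.48) for CONV and 1.76 (0.931 to 3.60) for FLASH. Of 18 macrophage transcription factors (medians 0.28 and 0.29), 3 were higher in CONV and 4 in FLASH beyond 2-fold, Cebpb among them, with Runx1 (a haematopoietic factor) at 47.0, 123 and 120 CPM and Bhlhe40 at 28.2, 96.1 and 142 CPM. Atf3, a stress-induced factor, was lower at 1148, 484 and 694 CPM, with ratios of 0.422 (0.326 to 0.546) for CONV and 0.605 (0.480 to 0.765) for FLASH.

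The 15 immediate early genes, which respond to handling within minutes, had medians of -0.38 in CONV and -0.26 in FLASH, with Jun at 1073, 538 and 663 CPM and Fos at 2917, 2246 and 2434 CPM. In MHC class I, B2m stood at 3443, 2619 and 2845 CPM, and the medians over 9 genes were -0.33 and -0.27, with 1 gene higher and 2 lower in CONV and 1 higher in FLASH. The 9 heat shock genes (0.06 and 0.21) and 6 NRF2 and metal genes (0.33 and 0.46) had 1 gene at least 2-fold higher in each comparison, Dnaja1 at 94.1, 208 and 262 CPM. Sqstm1, an autophagy receptor, was lower at 310, 115 and 145 CPM, and Hspa1a was lower in CONV, at 216, 49.99 and 117 CPM. Of 3 clock genes that passed the filter, Dbp had 9.41 CPM (1 UMI), 96.1 and 92.1 CPM. No mitosis gene passed the filter, and the list summed to 56.5, 57.7 and 21.3 CPM in the members, against 2670, 620 and 467 CPM in T cells.

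Fewer genes passed 2-fold between the 2 irradiation modes than between either mode and the 23 control members. Of the 2468 genes, 42 were at least 2-fold higher and 28 lower in FLASH than in CONV. The lower genes included Ccl4, given above, and Cd38, an NAD-consuming surface enzyme, at 142 CPM in CONV and 49.6 in FLASH, a ratio of 0.349 (0.174 to 0.660). Tgif1 stood at 204 and 88.6 CPM and Col14a1 at 131 and 49.6 CPM. The higher genes included genes of the Fn1-rich members: Prg4 at 177 and 616 CPM, Saa3 at 384 and 1205 CPM, Lyz1 at 135 and 439 CPM and Slpi at 2092 and 4769 CPM. Without the Fn1-rich members the log2 ratio of Slpi turned to -0.44 and that of Lyz1 to -0.33. Ccl5 (49.99 and 365 CPM), first of the higher genes by the lower bound of its ratio, rested on 1 FLASH member with 95 of the 103 UMIs, and without the highest member of each library its log2 ratio to CONV was -0.38.

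The Fn1-rich members were 2 of 23 in the control (8.70%, 1.07 to 28.0), 9 of 93 in CONV (9.68%, 4.52 to 17.6) and 17 of 108 in FLASH (15.7%, 9.45 to 24.0). FLASH exceeded CONV by 6.06 points (-3.50 to 15.3), an interval that spans 0. The limit of 5 Fn1 UMIs was chosen after the values were seen, and few members lay near it: 0, 0 and 2 had 3 or 4 UMIs and 0, 1 and 1 had 5 to 9. The 28 held 98.6% of the members' Fn1 UMIs (1369 of 1389), 98.7% of Slpi (a secreted protease inhibitor), 94.4% of Prg4 (lubricin), 93.5% of Saa3 (an acute phase protein), 98.0% of Alox15 (a lipoxygenase) and 99.2% of Serpinb2. They held 87.3% of Cd5l (a macrophage survival factor), 95.4% of Il6, 0.687% of Ms4a7, 1.30% of Lyve1 and none of the 565 Ccl8 UMIs. Their C1q genes were present, at 10.2% to 13.1% of the members' UMIs of C1qa, C1qb and C1qc, and 25 of the 28 were MHC class II low. Per RNA their C1q was lower: C1qa stood at 4777, 2860 and 3039 CPM, against 7631, 8247 and 7583 CPM in the other members. Their median depth was 4919, 5672 and 4496 UMIs, against 4465, 2401 and 2168 over all members, and the rule sets a minimum of raw C1q UMIs.

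Cebpb and Cdkn1a were present in this group as well. Among the Fn1-rich members Cebpb stood at 203 CPM in the control (2 UMIs), 3072 in CONV and 3004 in FLASH, and in the others at 104, 2002 and 1301 CPM. Cdkn1a stood at 305, 1043 and 1275 CPM in the Fn1-rich and 581, 3216 and 2229 CPM in the other members. Both genes were thus higher in value after irradiation in both groups of members. With 2 such cells in the control, no comparison within the Fn1-rich group is drawn beyond these values.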

How the data were processed

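The deposited values were UMI counts per gene and barcode, whole numbers with no normalization, in 3 matrices of 27998 genes from 10x Genomics 3' version 2 libraries. Per the labels' protocols, enzymes released the cells, which went through sieves of 100 and 40 µm before red cell lysis. Per the submitters' processing notes, the authors used Cell Ranger 2.0 and genome build mm10. The choice of barcodes as cells is not stated in them.

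The filters (at least 200 genes, at most 10% mitochondrial UMIs) removed 50 and 154 of 6662 barcodes. Doublets were kept in the main values, and a Scrublet run (scanpy 1.11.5) on the top-scoring share set by 0.8% per 1000 barcodes marked 24, 47 and 42 barcodes, of which 0, 0 and 2 were members. Members, gene lists and limits were chosen with earlier results of these data known. Monocytes (at least 3 marker UMIs, at most 1 endothelial UMI), dendritic cells (at least 3), alveolar macrophages (at least 6) and T cells (at least 2) were gated by markers, and the endothelial limit was added after the data were seen.

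Counts were summed over members and scaled to CPM of their total. Levels carry exact Poisson, shares Clopper-Pearson, differences of shares Newcombe and ratios conditional binomial intervals, all at 95%. Log2 ratios have 10 CPM added, and 12 genes of the rule were left out. With a library per group no test was possible. Named by rule were the 10 genes higher and 10 lower in each comparison with the control, and 5 and 5 between FLASH and CONV, ranked by the interval bound nearest to 1 with at least 30 UMIs in the higher library. For each list the rule added the 2 with the highest mean and the next 2 by size of the CONV log2 ratio, and all genes of the identity and perivascular lists. Other genes were chosen after their values were seen. Some genes of the lists are counted in them but not reported here by name. The fold calls and ratio intervals were checked on simulated counts. Alternatives changed the filters, limits of the rule, denominators, scaling, pseudocount and level filter. Sequences were matched to RefSeq by symbol. Python 3.11.15, numpy 2.4.6, scipy 1.17.1, pandas 2.3.3 and matplotlib 3.10.9 were used.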

Additional observations from a re-analysis of the deposited data

Results flagged for a closer look

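The 4 genes below were past 2-fold in opposite directions in the members and in the alveolar macrophages of the same libraries, with intervals on opposite sides of 1. The difference between the classes was not tested. Apoc1, an apolipoprotein, had a log2 ratio to the control of -5.41 in CONV and -5.46 in FLASH members, against 1.33 and 1.32 in alveolar macrophages. In the control members 78 of its 79 UMIs came from 1 cell, and without the highest member of each library the log2 ratios were -0.53 and -0.56. Cd93, a phagocyte membrane protein, had a log2 ratio of 1.84 in CONV members and -1.35 in alveolar macrophages. Thbs1 (thrombospondin) had 1.38 in FLASH members and -1.32 in alveolar macrophages, and 88.8% of the members' Thbs1 UMIs were in Fn1-rich members. Tgfbr1, a receptor for TGF-beta, had -1.34 in FLASH members and 1.32 in alveolar macrophages, from 14 control and 13 FLASH UMIs in the members.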

How the results depend on the processing

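No paired analysis was possible because each group is 1 library. The order control, CONV, FLASH of the member share held under every alternative run, and a C1q minimum of 30 UMIs brought FLASH (3.48%) nearest to CONV. The shares were 1.22% to 1.79%, 3.41% to 4.43% and 3.96% to 5.23% over the other rule and filter settings, 3.57%, 5.08% and 6.12% of barcodes with no lymphocyte UMI, 18.1%, 24.1% and 30.8% of 4 myeloid classes, and 14.3%, 22.9% and 28.6% of these without the endothelial limit. Counts of genes past 2-fold moved most with the filter and the pseudocount. In CONV against control, 69 were higher and 35 lower with 50 CPM added, 1460 and 694 with no level filter, and 28 and 18 with a mean of at least 200 CPM. In FLASH against control these were 86 and 29, 1545 and 645, and 32 and 14. In FLASH against CONV they were 13 and 1, 502 and 407, and 7 and 1. With 1 CPM added FLASH against CONV gave 64 and 44. The lower count there was 48 when scaled without ribosomal and mitochondrial UMIs and 50 without Fn1-rich members. Other settings gave 144 to 274 and 62 to 115 in CONV, 174 to 294 and 68 to 137 in FLASH, and 36 to 55 and 23 to 35 between them. Without Fn1-rich members, 147 of the 188 genes higher in CONV and 134 of the 210 in FLASH were shared. The MHC class II low share in CONV was 59.1% with a limit of 2%.

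Reversed log2 ratios rested on few members. Vcam1 turned to 0.14 in CONV and 0.40 in FLASH with no alveolar UMI allowed, to 0.16 and 0.50 with a mitochondrial limit of 5%, and to 0.056 and 0.33 without the highest member. Il6 in CONV turned to 1.86 and 1.25 (no alveolar UMI, without the highest member). Ccl5 in FLASH turned to -0.77, -1.22 and -0.58 against the control and to -0.62, -0.98 and -0.38 against CONV (Scrublet, C1q of at least 30, without the highest member). Cxcl10 in FLASH turned to -0.19 without the lymphocyte limit. Without Fn1-rich members Lyz1 turned to -0.33 and Slpi to -0.44 in FLASH against CONV. Of 2023 named-gene values in CONV, 1935 stayed within the counting interval of the reported value. The 23 control members limit every comparison with them.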
